A study of Xenopus laevis with 96 samples.

Results

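The libraries described here hold the last time point of a transient rise in retinoic acid (RA) in Xenopus laevis embryos. They are the 6 RA and the 6 control libraries collected 4.5 h after washing, picked by their labels from the 96 libraries of the series. RA embryos were kept in 10 nM RA for 2 h, between stage 9.5 and stage 10.25, then washed. Control embryos followed the same schedule, and their labels name no vehicle, while the RA stock was dissolved in DMSO according to the study's methods. All embryos were wild type and were processed whole. Each of the clutches A to F came from a single female, each library pools 5 to 10 embryos, and every clutch gave 1 RA and 1 control library, so that the 2 groups were compared within clutches. At 4.5 h the labels give stage 12 for clutches B and C and stage 12.5 for clutches A, D, E and F. The same clutches also gave 6 libraries each after 50 μM DEAB, an inhibitor of the dehydrogenases that make RA, and after 0.5% ethanol. Whole embryos were measured, so fewer cells of a type and less RNA per cell cannot be told apart.

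RA is made from vitamin A, which is oxidised to retinaldehyde and then to RA by retinaldehyde dehydrogenases such as aldh1a2. It binds nuclear receptors of the RAR and RXR families, and among the genes they activate are the anterior hox genes and the enzymes that lower RA itself. Those enzymes are the cyp26 hydroxylases, which inactivate RA, and dhrs3, which returns retinaldehyde to retinol. In the frog neural plate, RA favours hindbrain over forebrain fates.

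Depth on genes ran between 8761970 and 11675700 counts in RA libraries, with a median of 10017000, and between 5528560 and 12338700 counts in control libraries, with a median of 10806400. The control library of clutch D stood apart: it had the lowest total of all 96 libraries, and its 20 most counted genes took 16.7% of its counts, against 8.92% in the RA library of the same clutch. Markers of ectoderm, mesoderm, endoderm and the organizer fit the labelled tissue, since 13 homeologs of the 9 marker names found lay between 6.44 and 2214 CPM (read counts per gene scaled to a common library size) in every RA and control library. The epidermal keratin krt5.7.L was the only one of them with an unadjusted p under 0.05. X. laevis carries 2 copies of many genes, written .L and .S, and reads of near-identical copies may have been split between them in the authors' counting.

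At 4.5 h, no gene was called between RA and control embryos. Of 19750 genes tested with edgeR, 0 passed an adjusted p of 0.05 (0%), 9 passed 0.10 and the lowest adjusted p was 0.0505. An unadjusted p under 0.05 was found for 680 genes higher (3.44%) and 778 lower (3.94%) with RA, 1458 in all. The median log2 fold change over all genes was 3.55e-05 and its median SE 0.11. DESeq2 on the same libraries called 12 genes higher and 19 lower, limma on the authors' log2 values called 1, and edgeR without its filter on low counts called 29 higher and 38 lower. In the same clutches RA had called 60 genes higher and 44 lower directly after washing (0.537% of the genes tested). After 1.5 h it had called 107 higher and 21 lower (0.655%), and after 3 h, 30 higher and 1 lower (0.16%). The median SE increased over the same times, from 0.077 at 0 h to 0.089 at 1.5 h, 0.102 at 3 h and 0.107 at 4.5 h. An effect of a given size was therefore harder to call at the later times. How much of the fall in the counts comes from this was not tested. No gene passed at 4.5 h in the main edgeR fit, so the genes below are given with their levels, intervals and unadjusted p. Without its filter on low counts, edgeR did call some of them. These included cyp26a1.L, cyp26c1.L and cyp26c1.S (adjusted p = 0.0012 each), cyp26a1.S (0.0026), rax.L (0.0012) and rax.S (0.030). They also included azin2.S (0.0062), prph.L (0.014) and mxra5.S (0.017). Of these, cyp26a1.L, cyp26c1.S and rax.L were called in 2 of the alternative settings given at the end, and the others in that 1 only. DESeq2 called none of these cyp26, rax, azin2, prph and mxra5 homeologs.

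The enzymes that clear RA had the highest values relative to control of any RA metabolism group. All 4 homeologs of the cyp26 hydroxylases measured were higher with RA at an unadjusted p under 0.05, with a median log2 fold change of 0.78, while 3.44% of all genes were. cyp26a1.L had 202, 221, 547, 223, 305 and 239 CPM in RA libraries of clutches A to F, against 210, 192, 205, 144, 211 and 162 CPM in control libraries. All of its RA libraries but that of clutch A were above their own control, and 5 of 6 were above the highest control library. The log2 fold change was 0.55 (SE 0.12, 95% interval 0.31 to 0.79, unadjusted p = 0.00015, adjusted p = 0.14).

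The other homeolog, cyp26a1.S, had 143, 168, 650, 191, 240 and 198 CPM in RA libraries of clutches A to F, against 142, 148, 200, 137, 170 and 123 CPM in control libraries. Its groups overlapped, and clutch C again held the highest RA library. This gave a log2 fold change of 0.61 (SE 0.14, adjusted p = 0.20), with RA above control in 6 of 6 clutches (exact 2-sided sign-flip test, p = 0.031, the smallest that 6 clutches allow). cyp26a1.L and hoxb4.S were among the genes by which the authors chose these clutches for sequencing with qPCR, so that a response in them is not independent of that choice.

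cyp26c1 is a hydroxylase with the same substrate and a more anterior and hindbrain pattern in other vertebrates. Its homeologs had larger log2 fold changes than those of cyp26a1, but the 95% intervals overlapped and the difference was not tested. cyp26c1.L had 69.8, 70.0, 229, 232, 137 and 151 CPM in RA libraries of clutches A to F, against 64.1, 61.1, 41.7, 74.9, 79.4 and 101 CPM in control libraries. Clutches C and D had the highest RA levels, and clutches A and B were close to their controls. Its log2 fold change was 0.95 (SE 0.21, 95% interval 0.50 to 1.39, adjusted p = 0.16). cyp26c1.S had 77.3, 57.4, 221, 180, 110 and 93.9 CPM in RA libraries, against 64.9, 55.2, 35.0, 46.5, 60.1 and 59.4 CPM in control libraries. It was higher in 6 of 6 clutches and 5 of 6 RA libraries lay above every control library, with a log2 fold change of 1.05 (SE 0.23, adjusted p = 0.16).

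Without clutch C the log2 fold changes were 0.37 for cyp26a1.L, 0.38 for cyp26a1.S, 0.68 for cyp26c1.L and 0.76 for cyp26c1.S. All 4 homeologs kept an unadjusted p under 0.05 without any single clutch. Their median then ran between 0.53 without clutch C and 0.93 without clutch A. Without clutch D, whose control library stood apart, it was 0.72.

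**Figure D1:**
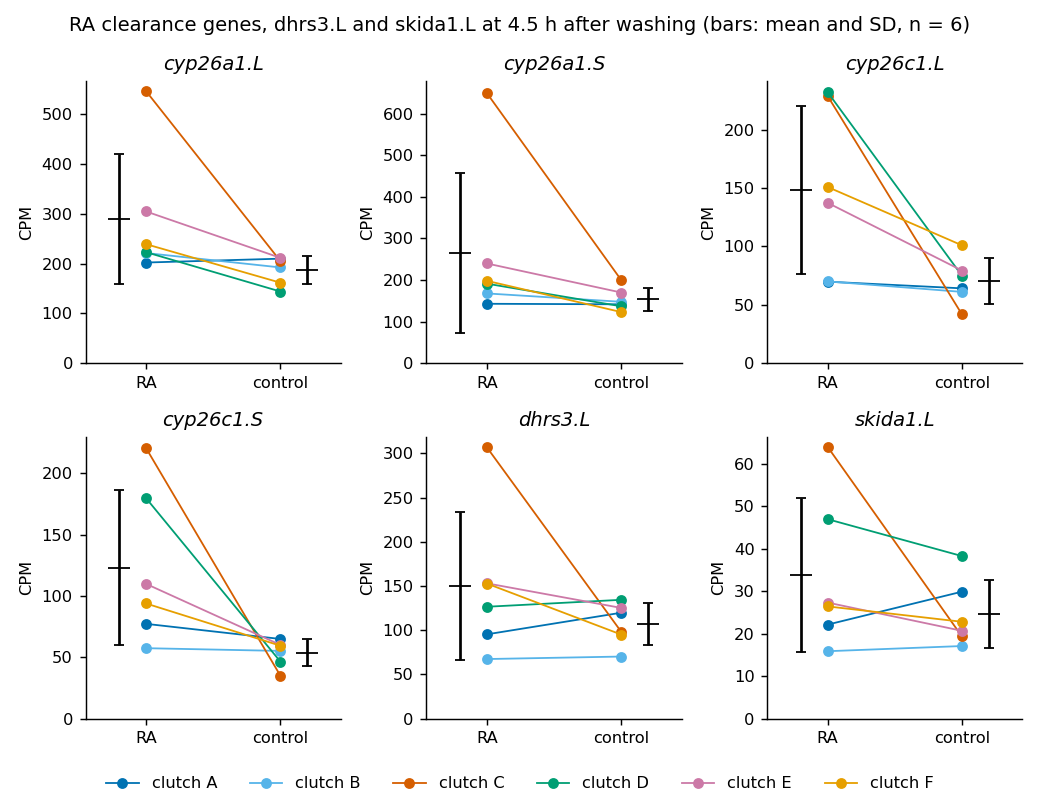
Levels of 4 cyp26 homeologs, dhrs3.L and skida1.L in CPM (y axes, each starting at 0) at 4.5 h, RA left and control right, with a line for each clutch and black bars for the mean and SD of 6 libraries. The RA library of clutch C is far above its control in every panel, while clutches A and B are near or below theirs.

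dhrs3.L, the reductase that returns retinaldehyde to retinol, had 67.3 to 307 CPM in RA libraries with a median of 140, against 70.2 to 134 CPM in control libraries with a median of 109. RA was above control in 3 of 6 clutches only. The log2 fold change was 0.36 (SE 0.17, unadjusted p = 0.044, adjusted p = 0.66) with clutch C and 0.10 without it. The other 2 retinaldehyde reductases tested, rdh14.L and adhfe1.S, had log2 fold changes of -0.11 (SE 0.08) and -0.13 (SE 0.16) and no unadjusted p under 0.05. rdh13.L was at 0.263 to 0.971 CPM in RA libraries and 0.201 to 1.15 CPM in control libraries and was not tested.

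The genes that make RA showed no difference larger than the spread between clutches. None of 5 homeologs had an unadjusted p under 0.05, while 7.38% of all genes did, and the 5 had a median log2 fold change of -0.07. aldh1a2.L, the main RA-producing dehydrogenase of the early embryo, had 129 to 222 CPM in RA libraries, against 142 to 211 CPM in control libraries, with a log2 fold change of -0.05 (SE 0.06). rdh10.L and rdh10.S, which oxidise retinol to retinaldehyde, had log2 fold changes of -0.07 (SE 0.05) and -0.09 (SE 0.08). sdr16c5.L was at -0.09 (SE 0.10), and aldh1a3.L, near 1 to 3 CPM in every library, at 0.19 (SE 0.26).

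Among 5 homeologs for binding, uptake and storage of retinoids, only lrat.L, which esterifies retinol for storage, had an unadjusted p under 0.05, while 7.38% of all genes did. lrat.L had 21.8 to 36.9 CPM in RA libraries, against 19.1 to 32.3 CPM in control libraries. Its log2 fold change was 0.21 (SE 0.09, unadjusted p = 0.033, adjusted p = 0.63), and 4 of 6 clutches were higher with RA. crabp2.L and crabp2.S, which carry RA to its receptors, had log2 fold changes of 0.01 (SE 0.07) and -0.06 (SE 0.12). stra6.L, the membrane importer of retinol, was at 0.04 (SE 0.16). The 4 RXR homeologs tested had log2 fold changes between -0.02 and 0.23 and none had an unadjusted p under 0.05.

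The 10 homeologs tested in hox groups 1 to 4 had a median log2 fold change of 0.11, which was -0.00063 without clutch C.

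hoxb1.S had 14.6 to 41.7 CPM in RA libraries, against 10.4 to 44.1 CPM in control libraries. Only clutch C was higher with RA, by 1.38 on the log2 scale, and the other 5 clutches lay between -0.33 and -0.01. Its log2 fold change was 0.06 (SE 0.15) over all clutches and -0.15 without clutch C. hoxb4.S was at 0.12 (SE 0.11) and hoxd4.L at -0.07 (SE 0.13). hoxa2.S was at 0.19 (SE 0.15) and hoxa3.S at 0.37 (SE 0.25).

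Over all genes tested, 7.38% had an unadjusted p under 0.05 in either direction. Of 10 homeologs in hox groups 5 to 13, only hoxc5.L did, and 1 of 10 is near that share. It had 7.26 to 16.1 CPM in RA libraries, against 6.67 to 13.6 CPM in control libraries, and a log2 fold change of 0.26 (SE 0.11, adjusted p = 0.63). The caudal genes, which act upstream of posterior hox genes, had 0 of 6 homeologs with an unadjusted p under 0.05 and log2 fold changes between -0.03 and 0.09. The 8 TALE cofactors of hox proteins also had none, and their log2 fold changes lay between -0.12 and 0.16.

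**Figure D2:**
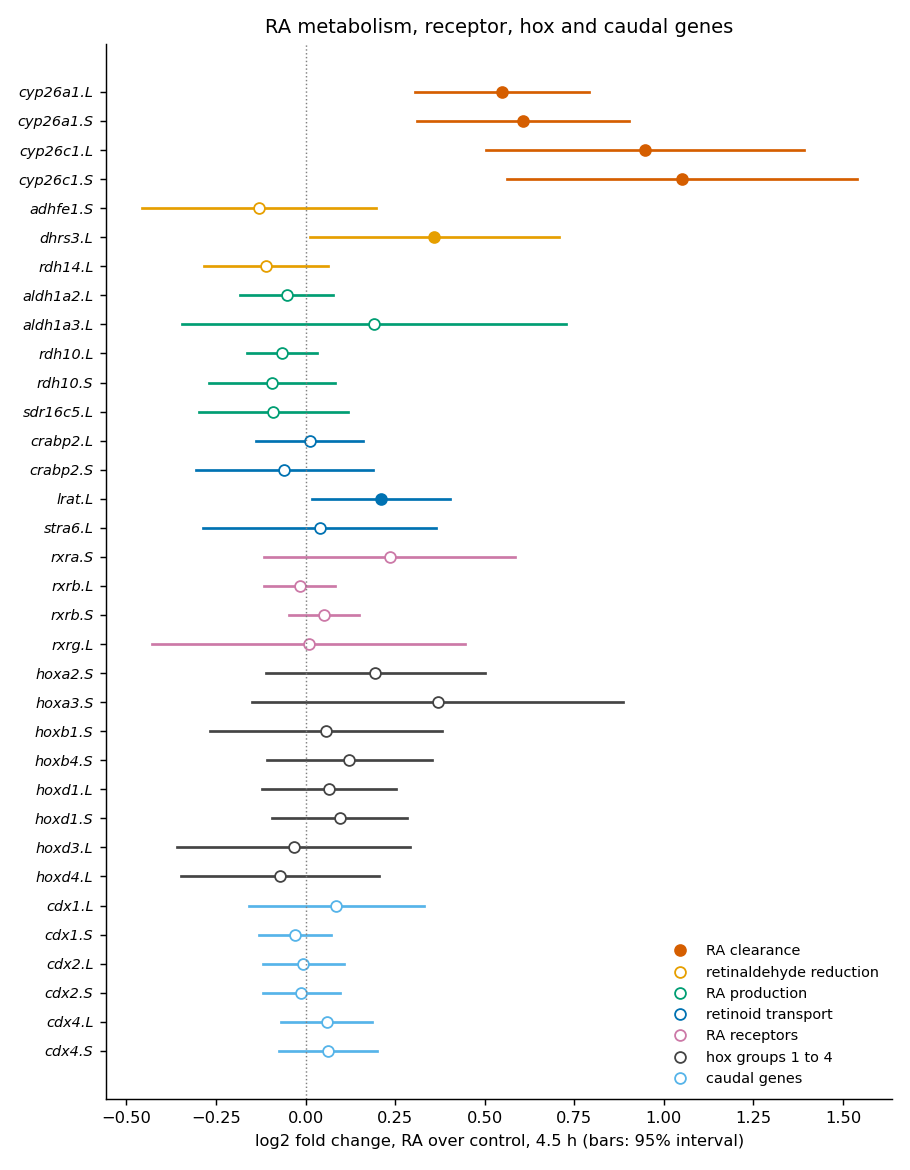
Log2 fold change of RA over control at 4.5 h (x axis) with its 95% interval for RA metabolism, receptor, hox and caudal homeologs, coloured by group, filled where the unadjusted p was under 0.05. The 4 cyp26 homeologs lie between 0.55 and 1.05, and the intervals of the production, receptor and caudal genes include 0.

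The clutches differed in how far they had returned to control. The change within a clutch, RA minus control in log2 CPM, had a median over the 4 cyp26 homeologs of 0.07, 0.19, 2.08, 1.13, 0.66 and 0.62 in clutches A to F at 4.5 h. At 0 h the same median was 1.68, 1.37, 2.31, 2.14, 1.81 and 1.91, so that all 6 clutches had responded. Clutches A and B were already at 0.25 and 0.12 at 3 h, whereas clutch C was at 2.25 and clutch D at 1.71.

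cyp26a1.S and dhrs3.L showed this at the level of single genes. The change of cyp26a1.S in clutch A was 2.54, 1.03, -0.01 and 0.01 over the time points 0, 1.5, 3 and 4.5 h, while in clutch C it was 2.41, 2.99, 2.60 and 1.70. dhrs3.L in clutch B was at 2.08, 0.43, 0.13 and -0.06 over the 4 time points, and in clutch C at 3.18, 2.66, 1.93 and 1.64. At 3 h, clutches D, E and F lay between clutch C and clutches A and B in both genes.

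A larger set of genes was also followed by clutch. RA had called 107 genes higher at 1.5 h, and 106 of them were tested at 4.5 h, in other libraries of the same clutches. The 107 included 5 RA metabolism homeologs of the study and 5 homeologs of hox groups 1 to 4, and the set was not examined without them. Their median change within clutches at 4.5 h was -0.02, -0.01, 0.58, 0.17, 0.23 and 0.25 in clutches A to F, and 49, 50, 101, 76, 89 and 90 of the 106 were higher with RA. Over all 19750 genes the median change lay between -0.0033 and 0.0085 in the 6 clutches. Clutch C had the lowest stage index, described below, in both groups. With 1 library per clutch and group, a slow return of clutch C and a difference of that 1 RA library cannot be told apart at 4.5 h. At 1.5 h the median change of the cyp26 homeologs was 0.99, 0.52, 2.73, 2.33, 2.28 and 2.00 in clutches A to F.

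**Figure D3:**
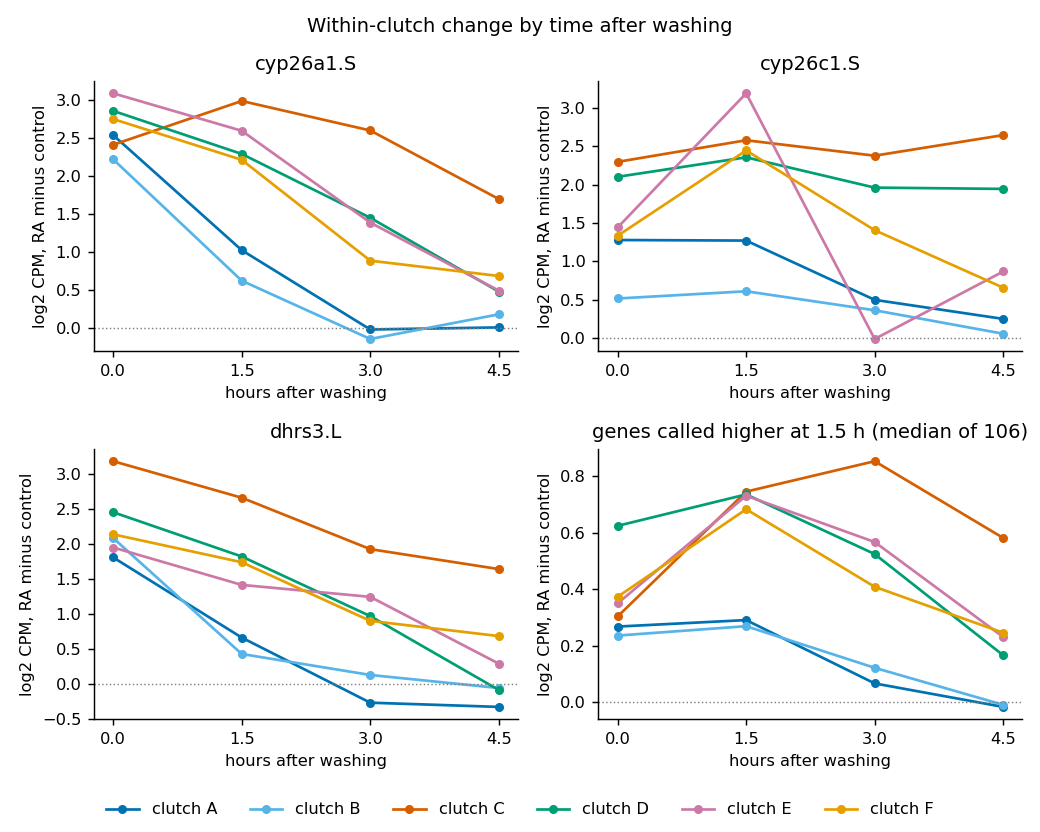
Change within each clutch, RA minus control in log2 CPM (y axes), against hours after washing (x axes) for cyp26a1.S, cyp26c1.S, dhrs3.L and the median of the 106 genes called higher at 1.5 h, with a line for each clutch. Clutches A and B are near 0 from 3 h on except for cyp26c1.S and for dhrs3.L in clutch A, which is at -0.27 and -0.33 at 3 and 4.5 h. Clutch C is the highest at 3 and 4.5 h in all panels.

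Most genes called at earlier times lay on the same side of control at 4.5 h, with smaller medians. Of the 60 genes called higher at 0 h, 57 were tested at 4.5 h and 51 of them (89.5%) were above control, while 51.0% of all genes were. Their median log2 fold change was 0.52 at 0 h and 0.20 at 4.5 h. At 4.5 h, 24 of the 57 were higher at an unadjusted p under 0.05, while 3.44% of all genes were. Of 44 genes called lower at 0 h, 36 (81.8%) were below control at 4.5 h, while 49.0% of all genes were, with a median of -0.35 at 0 h and -0.07 at 4.5 h. Of the 106 genes called higher at 1.5 h, 99 (93.4%) were above control at 4.5 h, against 50.7% of all genes, with medians of 0.61 and 0.21. Genes called together are not independent, so the shares are descriptions. The sets were picked by their effects at the earlier times, which draws their earlier medians away from control. How much of the smaller medians at 4.5 h comes from that choice was not tested.

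Whether the RA effect had changed since washing was tested for each gene as the difference between the effects at 4.5 h and at 0 h, in a fit of 72 libraries. Of 22092 genes, 15 passed an adjusted p of 0.05 (0.0679%), 12 with a lower and 3 with a higher effect at 4.5 h. Not all of them had come nearer to control. The 12 included genes at 0.25, 0.35 and 0.33 at 0 h that were at -0.34, -0.33 and -0.32 at 4.5 h. The 3 included a gene at -0.74 at 0 h and 0.82 at 4.5 h. These genes with a changed sign were not called at 0 h. cyp26a1.S and dhrs3.L had the smallest p. cyp26a1.S had a log2 fold change of 2.67 at 0 h, and its effect at 4.5 h differed from that by -2.07 (SE 0.34, adjusted p = 0.0017). dhrs3.L was at 2.21 at 0 h with a difference of -1.86 (SE 0.31, adjusted p = 0.0017), and cyp26a1.L at 2.09 with -1.55 (SE 0.31, adjusted p = 0.023). skida1.L was at 2.02 at 0 h with a difference of -1.65 (SE 0.34, adjusted p = 0.026), and the unnamed LOC108697667 at 1.73 with -1.41 (SE 0.25, adjusted p = 0.0060).

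The cyp26c1 homeologs did not pass that test. cyp26c1.L had log2 fold changes of 1.50, 1.61, 1.09 and 0.95 at 0, 1.5, 3 and 4.5 h, a difference between the last and the first of -0.55 (SE 0.68, adjusted p = 0.87), and cyp26c1.S had 1.60, 2.05, 1.13 and 1.05, a difference of -0.54 (SE 0.63, adjusted p = 0.86). Whether the cyp26a1 and cyp26c1 effects differ from each other in their decline was not tested. The count of 15 varied with the clutches kept, and leaving out a clutch also leaves fewer libraries to test. It was 0 without clutch F, 1 without clutch D, 3 without clutch E, 8 without clutch A, 12 without clutch B and 25 without clutch C. It was 0 when clutch was not kept as a block.

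Of 3 genes listed for a lasting response, azin2.S at 4.5 h was near its value of 0 h, and mxra5.S and prph.L were below theirs of 3 h. These reference times are unlike, so the genes are not ranked by them. None of the 3 was among the genes whose effect at 4.5 h differed from that at 0 h or 3 h. mxra5.S, a matrix remodelling gene, had 1.67, 1.40, 6.94, 2.86, 1.47 and 0.719 CPM in RA libraries of clutches A to F, against 1.21, 1.34, 1.05, 0.604, 0.332 and 0.344 CPM in control libraries. Its log2 fold change was 1.44 at 4.5 h (SE 0.32, adjusted p = 0.16), against 1.68, 2.05 and 2.51 at the earlier times in order, and 0.99 without clutch C. prph.L, which encodes the neuronal intermediate filament peripherin, had 17.6 to 38.5 CPM with a median of 20.3 in RA libraries, against 8.67 to 20.7 CPM with a median of 13.6 in control libraries. It was at 0.79 at 4.5 h (SE 0.20, adjusted p = 0.26), 0.56 without clutch C, and at 1.29 at 3 h. azin2.S, of the antizyme inhibitor family in polyamine metabolism, was at 0.49 (SE 0.12, adjusted p = 0.23) at 4.5 h and 0.45 at 0 h. All 3 were higher with RA in 6 of 6 clutches, and were picked for this list because an earlier reading of these libraries had singled them out.

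Genes outside RA metabolism were also among those with the smallest unadjusted p for a higher level at 4.5 h. Ranked by unadjusted p among named genes that were higher in 6 of 6 clutches, a rule that left out cyp26a1.L, lgmn.L came first. This gene, for the lysosomal protease legumain, had 1.40 to 3.2 CPM with a median of 1.94 in RA libraries, against 0.576 to 1.41 CPM with a median of 0.818 in control libraries, and 5 of 6 RA libraries lay above every control. Its log2 fold change was 1.32 (SE 0.21, 95% interval 0.88 to 1.75, adjusted p = 0.0505), but against the ethanol libraries it was 0.39. atp6a1 had 38.5, 28.6, 54.5, 37.1, 57.9 and 22.6 CPM in RA libraries of clutches A to F, against 27.6, 19.5, 14.2, 24.6, 28.0 and 14.5 CPM in control libraries. Its log2 fold change was 0.90 (SE 0.17, adjusted p = 0.096), it was at 0.61, 0.81 and 0.91 at 0, 1.5 and 3 h, and it was called against ethanol at 1.17 (adjusted p = 0.0042).

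The next of these genes included gprc5b.S, an orphan receptor of a family named for induction by RA in mammals. It had 12.9 to 23.3 CPM in RA libraries, against 5.56 to 15.7 CPM in control libraries, with a log2 fold change of 0.72 (SE 0.14, adjusted p = 0.096). ipmk.L, an inositol phosphate kinase, had 57.6 to 131 CPM in RA libraries, against 36.0 to 63.3 CPM in control libraries, with a log2 fold change of 0.55 at 4.5 h (SE 0.11, adjusted p = 0.13) and of 0.61 and 0.66 at 1.5 and 3 h. The remaining genes named by this rule were LOC108713449, gcnt2.L, golm1.S and hrg.L, with log2 fold changes between 0.27 and 0.82.

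Some regulators of the anterior neural plate had lower levels with RA at 4.5 h, though none was called in the main fit. Both rax homeologs were called by edgeR without its filter on low counts, rax.S in that setting only. Of 13 homeologs of forebrain and eye field genes, 5 were lower at an unadjusted p under 0.05 and none was higher, while 3.94% of all genes were lower, and the median log2 fold change was -0.23. The other 8 lay between -0.26 and 0.14, with 3 of them above control. rax.L, which specifies the eye field, had 23.8, 25.9, 1.17, 80.2, 9.97 and 5.66 CPM in RA libraries of clutches A to F, against 35.5, 42.6, 8.28, 93.4, 27.2 and 37.7 CPM in control libraries. RA was below control in 6 of 6 clutches, though the groups overlapped, with clutch levels spread widely in both. The log2 fold change was -1.10 (SE 0.23, 95% interval -1.59 to -0.62, adjusted p = 0.13).

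The other homeolog, rax.S, had 20.7, 16.6, 2.88, 44.4, 6.33 and 1.89 CPM in RA libraries of clutches A to F, against 29.9, 28.1, 5.33, 40.3, 14.4 and 15.7 CPM in control libraries. Only clutch D was higher with RA, and the log2 fold change was -0.83 (SE 0.23, adjusted p = 0.33). lhx2, another eye field and forebrain regulator, had 1.17 to 6.97 CPM with a median of 2.62 in RA libraries, against 2.00 to 9.06 CPM with a median of 5.42 in control libraries. It was lower in 6 of 6 clutches with a log2 fold change of -0.73 (SE 0.19, adjusted p = 0.26).

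six3.L, a forebrain and eye regulator, had 6.94 to 40.9 CPM in RA libraries, against 14.2 to 41.7 CPM in control libraries, and was lower in 6 of 6 clutches with a log2 fold change of -0.60 (SE 0.17, adjusted p = 0.35). fezf2.L, a forebrain zinc finger gene, had a log2 fold change of -0.53 (SE 0.19, adjusted p = 0.55) and was lower in 5 of 6 clutches. The list counted 4 to 6 genes lower at an unadjusted p under 0.05 when each clutch was left out. These genes are late: between 3 and 4.5 h, in the DEAB and ethanol libraries, rax.L was higher at 4.5 h by 3.91 on the log2 scale, rax.S by 3.36, six3.L by 2.43, lhx2 by 2.42 and fezf2.L by 2.18.

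pax6, a regulator of eye, forebrain and hindbrain, was also below control. pax6.L had 9.08 to 59.9 CPM with a median of 15.6 in RA libraries, against 8.86 to 61.2 CPM with a median of 29.3 in control libraries, and a log2 fold change of -0.51 (SE 0.16, adjusted p = 0.43). pax6.S was at -0.36 (SE 0.16, adjusted p = 0.64), after 1.02 at 3 h, where it had been called higher (adjusted p = 0.0215). pax2.L, of the midbrain and hindbrain boundary, was at -0.52 (SE 0.18, adjusted p = 0.51), a value that turned to 0.04 against the ethanol libraries. Of 16 homeologs of other RA-responsive regulators, 3 were higher at an unadjusted p under 0.05 and the 2 pax6 homeologs were lower. Over all genes, 3.44% were higher and 3.94% lower. The 3 were mafb.L of the hindbrain at 0.80 (SE 0.30), tshz1.S at 0.51 (SE 0.19) and nr6a1.S at 0.24 (SE 0.09).

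**Figure D4:**
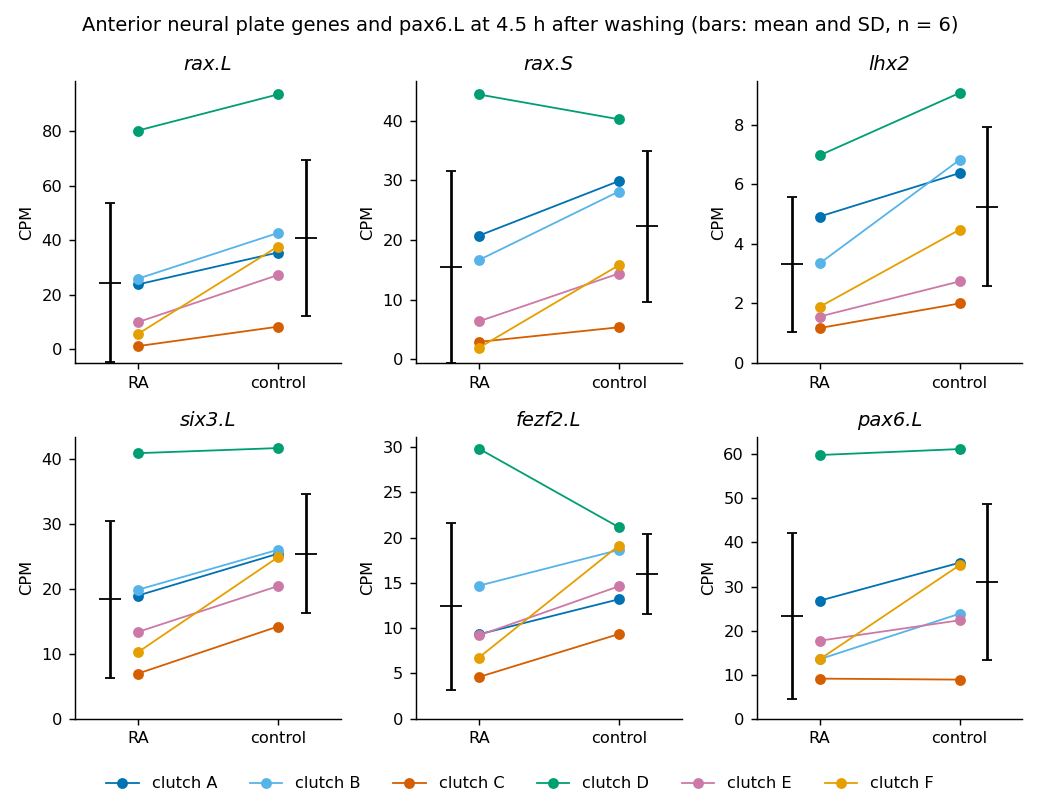
Levels of rax.L, rax.S, lhx2, six3.L, fezf2.L and pax6.L in CPM (y axes) at 4.5 h, RA left and control right, with a line for each clutch and black bars for the mean and SD of 6 libraries. Lines run upward to control in 6 of 6 clutches for rax.L, lhx2 and six3.L and in 5 of 6 for rax.S, fezf2.L and pax6.L.

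Outside the lists, genes with the smallest p and a lower level were led by LOC108697896, which had 0 counts in both libraries of clutch E and was below control in the other 5 clutches. It had 5.44, 0.755, 0.320, 0, 0 and 7.10 CPM in RA libraries of clutches A to F, against 17.3, 6.62, 0.667, 0.201, 0 and 17.3 CPM in control libraries, so its fitted log2 fold change of -1.70 (SE 0.27, adjusted p = 0.0505) rests mainly on clutches A, B and F. Its fold against ethanol was -0.25. htra1.S, a secreted serine protease, was at -0.32 (SE 0.06), arhgef16.L, a guanine nucleotide exchange factor, at -0.29 (SE 0.05), macc1.L at -0.42 (SE 0.08) and gli3.L, an effector of hedgehog signals, at -0.36 (SE 0.07), with adjusted p between 0.096 and 0.11. The last places went to LOC108717214, LOC108700097, myo5c.L and LOC108699487, with log2 fold changes between -1.17 and -0.43. Some of these values depended on the processing. At their closest to 0 among the alternative settings, macc1.L was at -0.013, LOC108699487 at -0.021 and LOC108717214 at -0.052. The other genes of this paragraph were then between -0.25 and -0.096.

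Of the genes called lower at 0 h, aldh1l1.L, a folate enzyme, was at -0.27 and LOC108716994 at -0.46 at 4.5 h with an unadjusted p under 0.05, and ckmt1b.L, a mitochondrial creatine kinase, was at 0.21.

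In epidermis and neural crest no gene was called either. Of 14 epidermal homeologs 4 were lower at an unadjusted p under 0.05, against 3.94% of all genes, which were krt5.7.L at -0.21 (SE 0.07), krt12.L at -0.15 (SE 0.07), grhl1.L at -0.15 (SE 0.07) and grhl1.S at -0.14 (SE 0.06). Against ethanol, krt5.7.L and krt12.L turned to 0.02 and 0.05. Of 13 neural crest and border homeologs 3 were lower, sox9.S at -0.37 (SE 0.14), snai2.L at -0.50 (SE 0.23) and pax3.S at -0.12 (SE 0.05), while sox9.L and snai2.S were at 0.20 (SE 0.16) and 0.14 (SE 0.15). Both counts depended on the clutches kept, and leaving out a clutch also leaves fewer libraries to test. The epidermal count of lower genes ran from 1 without clutch F to 4 without clutch A. The neural crest and border count ran from 0 without clutch F to 3 without clutch A or clutch E. Of 11 pan-neural homeologs only ncam1.L was lower, at -0.22 (SE 0.10).

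Mesoderm and endoderm lists had few members with an unadjusted p under 0.05. Over all genes, 3.44% were higher and 3.94% lower at that threshold, and 49.0% were below control. Of 19 posterior and paraxial mesoderm homeologs 1 was lower at an unadjusted p under 0.05, the Notch ligand dlc.L at -0.12 (SE 0.05), 17 of 19 were below control, and the median of the list was -0.07. In axial mesoderm, lhx1.L of the organizer and notochord was higher at 0.35 (SE 0.14), 1 of 13 homeologs. In the ventral and heart list, isl1.L was lower at -0.47 (SE 0.19), 1 of 4, with 4 of 4 below control and a median of -0.20. In endoderm, mixer.S was higher at 0.35 (SE 0.12) and gata4.S at 0.15 (SE 0.07), 2 of 11. Among 9 stress genes only the chaperone hspa8.L differed, at -0.16 (SE 0.07), and 0 of 10 cytochrome P450 and xenobiotic genes did.

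Because time changes many genes at these stages, each library was also given a stage index. The index is the mean log2 CPM of 1181 genes that were at least 2-fold higher at 4.5 h than at 3 h, minus that of 485 genes that were at least 2-fold lower, chosen in the DEAB and ethanol libraries only. It was 0.87, 0.28, -0.95, 1.73, 0.91 and 1.05 in RA libraries of clutches A to F, against 1.13, 0.58, -0.53, 1.71, 1.14 and 1.59 in control libraries. RA was lower in 5 of 6 clutches, by 0.29 on average (-0.29 ± 0.19, SD, n = 6), which an exact 2-sided sign-flip test put at p = 0.0625. At 3 h the index was -1.13, -1.87, -3.26, -0.98, -1.93 and -1.19 in RA libraries of clutches A to F. The control libraries of 3 h had -1.42, -2.11, -2.89, -0.67, -1.53 and -0.80. There RA was higher in clutches A and B and lower in C, D, E and F, and this was not tested. The direction thus did not hold over both times in clutches A, B and D. The step of the control libraries between 3 and 4.5 h was 2.51 ± 0.15 (SD, n = 6), and the difference of each clutch was -11.6% of its step on average.

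Among the stage genes themselves, 184 of 1179 that increase with time were lower with RA at an unadjusted p under 0.05 and 22 were higher. Of 424 that decrease with time, 61 were higher and 1 was lower. Over all genes tested, 3.94% were lower and 3.44% higher at that threshold. The 5 anterior neural plate genes named above are themselves more than 2-fold higher at 4.5 h than at 3 h. The same holds for other genes named above as lower with RA. In the DEAB and ethanol libraries pax6.L was higher at 4.5 h by 2.84 on the log2 scale, pax2.L by 2.68, isl1.L by 2.07, snai2.L by 1.76 and LOC108697896 by 3.78. It does not hold for all of them, since sox9.S was at 0.09, dlc.L at 0.08 and macc1.L at 0.04. mixer.S, named as higher with RA, was at -1.27. The median change of the 13 anterior neural plate homeologs was -0.34, -0.39, -0.63, 0.14, -0.26 and -0.30 in clutches A to F, beside stage index differences of -0.26, -0.30, -0.42, 0.02, -0.23 and -0.54. Clutch D was the only clutch above 0 in both, and clutch F had the largest index difference but not the largest change of these genes. The part of the stage index in the values of the anterior neural plate genes, or of the other genes named here, was not tested.

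**Figure D5:**
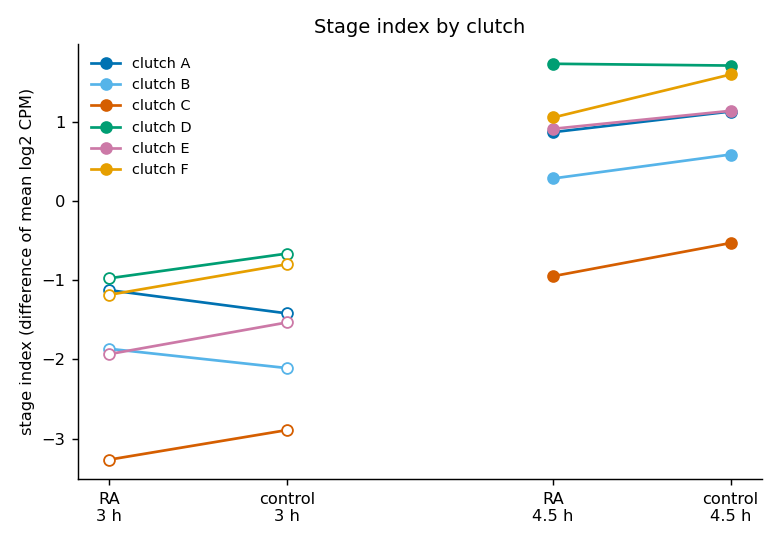
Stage index (y axis, a difference of mean log2 CPM) of RA and control libraries at 3 h (open points) and 4.5 h (filled points), RA left and control right at each time, with a line for each clutch. At 4.5 h the index is lower with RA in clutches A, B, C, E and F and about equal in clutch D. At 3 h it is higher with RA in clutches A and B and lower in clutches C, D, E and F.

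The overall size of the difference from control was also compared between the end and the start of the recovery. The median size of the change within clutches over genes with at least 10 CPM was 0.11 ± 0.02 on the log2 scale at 4.5 h and 0.10 ± 0.02 at 0 h (SD, n = 6 each), larger at 4.5 h in 5 of 6 clutches (mean difference 0.0077, exact 2-sided sign-flip test, p = 0.375). Over genes with at least 1 CPM the mean difference was 0.024 (p = 0.0625 in the same exact test). This measure includes sampling noise and differences between pools of embryos. In every clutch the RA and control libraries of 4.5 h had lower totals than those of 0 h, and the part of this in the difference was not tested.

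Among the 4 groups of 4.5 h, cyp26c1.S and dhrs3.L had their highest mean after RA and their lowest after DEAB. cyp26c1.S averaged 123 ± 63.5 CPM with RA, 31.4 CPM with DEAB, 50.8 CPM with ethanol and 53.5 ± 11.0 CPM in control (SD, n = 6). dhrs3.L averaged 150 CPM with RA, 61.2 CPM with DEAB, 105 CPM with ethanol and 107 CPM in control. For these genes ethanol libraries were close to control.

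rax.L and six3.L did not follow that order. rax.L averaged 24.5 CPM with RA, 20.03 CPM with DEAB, 36.1 CPM with ethanol and 40.8 CPM in control, and six3.L averaged 18.4 CPM with RA, 18.7 CPM with DEAB, 24.03 CPM with ethanol and 25.4 CPM in control. All comparisons with control at 4.5 h share the same 6 control libraries, so the low means of RA and DEAB are not independent of each other. Against the ethanol libraries, RA was at -0.74 for rax.L and -0.43 for six3.L.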

How the data were processed

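RNA of whole embryos was sequenced, and gene counts were deposited for 96 libraries. The authors used STAR for alignment (X. laevis genome build 9.1) and verse for counting, and the deposited counts are not normalized. The deposited log2 values, made by the authors from 72 libraries with DESeq2's regularized log, ComBat, a filter and quantile normalization, were used for 1 alternative and for gene names (14819 of 31430 genes, of whose 14817 symbols 12652 were found in RefSeq). All rows had a gene ID and all columns a sample.

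The main test was the quasi-likelihood test of edgeR 4.0.16 (R 4.3.3) after TMM scaling and the filterByExpr filter, with a term for each clutch as block and p adjusted by Benjamini-Hochberg, in a fit of the 18 RA, DEAB and control libraries of 4.5 h. Effects at 4.5 h and 0 h were compared in 1 fit of 72 libraries with clutch within time as a block. CPM were scaled by TMM over the 24 libraries of 4.5 h, with a prior count of 2 on the log2 scale. Standard errors (SE) were obtained by dividing the absolute log2 fold change by the root of the F statistic. Values within clutches were tested by all 64 sign flips. Labels give a clutch letter, and the paper states that a clutch came from 1 female. RA and control libraries of a clutch deviated together from their group means (correlations 0.653 to 0.790, against -0.407 to 0.274 between clutches). No 2 libraries of a group were alike within sampling noise (chi-square over its degrees of freedom 14.7 to 58.5).

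Named genes were those of the study's hox and RA metabolism lists, members of the other lists with an unadjusted p under 0.05, up to 10 higher and 10 lower genes of smallest p with the same direction in 6 clutches, and the largest changes at 0 h. Of 241 list names, 158 were found. Members and lists were chosen with earlier results of these data known. Alternatives were DESeq2 1.42.0, limma 3.58.1, other scaling, filter, block, samples and reference, and each clutch left out. The test was checked on simulated data. P-values weigh an effect against how far it varied from clutch to clutch, and in edgeR the DEAB libraries add to that estimate. Some named genes are not reported here. No sequences are given, and gene coordinates are not used here.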

Additional observations from a re-analysis of the deposited data

Results flagged for a closer look

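Of 78 sets of 6 clutch values examined for a value far from the others, 7 held one. Chance gives 5% for a set, but these sets share libraries, so their count cannot be weighed against that share. In 5 of them the far value was the RA minus control change of clutch C at 4.5 h, on the log2 scale, above all other clutches. It was 1.38 for hoxb1.S (others -0.33 to -0.01), 0.84 for hoxb4.S (others -0.12 to 0.16), 2.05 for prph.L (others 0.21 to 0.89) and 1.42 for LOC108697667 (others -0.21 to 0.37). For sox9.S it was 0.44 (others -0.80 to -0.36). The others were stra6.L, at 1.12 in clutch D (others -0.40 to 0.12), and pax2.L, at -1.66 in clutch F (others -0.48 to 0.00052). stra6.L had 2.22 to 6.63 CPM in control libraries, with the lowest value in the clutch D library of low depth.

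The RA effect differed between 4.5 h and 0 h, in a test of the difference over 72 libraries, for 5 of the genes named above. The differences were -2.07 for cyp26a1.S, -1.55 for cyp26a1.L, -1.86 for dhrs3.L, -1.65 for skida1.L and -1.41 for LOC108697667 on the log2 scale. All 5 had an effect nearer to 0 at 4.5 h.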

How the results depend on the processing

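The count of genes called at 4.5 h was 0 with RLE scaling, with the 12 RA and control libraries alone and in the 4 clutches of stage 12.5, and it moved with the tool and the pooling of libraries. It was 31 with DESeq2, 67 without the filter on low counts, 19 in a single fit of 72 libraries, 1 with limma on the deposited log2 values, 2 with ethanol libraries as the reference, 2 in a fit of 24 libraries with control as the reference (chosen after seeing the data), 9 at an adjusted p under 0.10, and 0 to 6 without each clutch in turn, the 6 without clutch A. LOC108697896, lgmn.L, atp6a1, gprc5b.S and arhgef16.L were called in 4 of these settings each. Without clutch as a replicate block 0 genes were called at 4.5 h (82 at an unadjusted p under 0.05) and 0 of the differences between 4.5 h and 0 h passed, against 15 with it. That count of differences was 1 with 1.5 h as the earlier time and 0 to 25 without each clutch in turn. The stage index and the size of the change within clutches kept their direction in all alternatives run. They also kept their side of the threshold. With a clutch left out, however, the sign-flip test has too few values to give a p under 0.05, so only the direction can be read there.

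Directions turned for some named genes. Against ethanol libraries these were crabp2.S (0.039), rdh14.L (0.0030), sdr16c5.L (0.041), stra6.L (-0.050), pax2.L (0.038), krt12.L (0.053), krt5.7.L (0.025) and ckmt1b.L (-0.049). In the 4 clutches of stage 12.5 they were hoxb1.S (-0.12), crabp2.S (0.086) and arhgef3.2.L (0.029), and without the block hoxd4.L (0.0084) and crabp2.S (0.018). When each clutch was left out, the log2 fold change ran between -0.15 and 0.14 for hoxb1.S, -0.0040 and 0.17 for hoxb4.S, -0.19 and 0.013 for hoxd4.L, -0.036 and 0.055 for crabp2.L, -0.12 and 0.023 for crabp2.S, -0.10 and 0.14 for stra6.L, and -0.081 and 0.0097 for arhgef3.2.L. The cause of these turns was not tested.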
